A study of Mus musculus with 7 samples.

Results

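The genes described here are the heat shock proteins and DnaJ chaperones of the mouse, taken as every row of the count table whose symbol starts with Hspa, Hspb, Hspd, Hspe, Hsph, Hsp90 or Dnaj followed by a digit or by a, b or c. The pattern found 74 of 21861 rows. Among them are 14 genes of the Hsp70 and Hsp110 family, 3 Hsp90 genes and 8 genes with small heat shock protein symbols (Hspb). The others are the 2 mitochondrial chaperonin genes Hspd1 and Hspe1, 45 DnaJ genes, Hspbap1 and 1 row that is counted but not described. Hspbap1 matches the pattern by its letters, but its product is a protein that binds the small heat shock protein HSPB1 and is not itself a chaperone.

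RNA came from the RPE (retinal pigment epithelium), a single layer of pigmented cells that nourishes the photoreceptors, of aged mice given an adeno-associated virus (AAV). The vector carried GFP, the control, in 3 libraries, and GSTA4, a glutathione transferase that detoxifies products of lipid peroxidation, in 4 libraries. All 7 libraries came from tissue taken 12 weeks after treatment. Both groups thus share age, vector type and interval, and there was no untreated group. Strain, sex, the age in numbers, the promoter of the vectors and whether a library is 1 mouse or a pool are not given in the labels, so the p-values below measure only the spread between these libraries. Y-linked genes together had 9975 counts in AAV-GFP replicate 1 and 6926 and 8314 in AAV-GSTA4 replicates 3 and 4. They had 2 to 59 in the other libraries, so both groups mix libraries with and without a strong Y-linked signal.

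Chaperones hold unfolded proteins in solution and help them to fold. Hsp70 proteins do so in cycles of ATP hydrolysis that DnaJ (J domain) proteins start and nucleotide exchange factors end, Hsp90 finishes the folding of kinases and receptors, and small heat shock proteins keep unfolded proteins from aggregating without using ATP. In the cytosol a set of these genes is switched on by the heat shock factor HSF1 through repeated GAA and TTC units, the heat shock element, whereas the chaperones of the endoplasmic reticulum (ER) answer to unfolded protein there through the ER stress element.

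The 2 control elements are shown because each stands for 1 of these responses, although neither was found in most of the genes searched. The lists of ER and heat-inducible genes used below were fixed by name, not by element. Promoter windows of 250 bases before the transcription start were taken from RefSeq on GRCm38.p6, and 59 of the 74 genes had such a window. Hspa8, Hsp90aa1 and Hsp90ab1 were among the genes without a window. An element outside the window, or with other spacing, would be missed. Both strands were searched, and capitals mark the match. An element of 3 heat shock units, GAA and TTC in turn with 2 bases between neighbours, was present in the windows of Dnajb6, Hspd1 and Hspe1, which is 3 of 59 genes (5.08%), against 0.514% of all 27025 genes with a window. The looser 2-unit form, GAANNTTC or TTCNNGAA, which every 3-unit element contains, was present in 14 of the 59 (23.7%) and in 14.5% of all genes. The ER stress element, CCAAT followed after 9 bases by CCACG, was present in 3 of the 59, Hspa5, Hsp90b1 and Dnajc3, and in 0.130% of all genes. The first line stands in the window of Hspe1 and in that before an inner start of the head-to-head gene Hspd1. The window before the outer Hspd1 start held no match. The Hspe1 and inner Hspd1 windows overlap an annotated exon, over 159 and 194 bases. So do the windows of the outer Hspd1 start, Hspa5 and Hsp90b1, over 169, 120 and 65 bases.
Hspe1 and Hspd1, chr1:55088054-55088081, plus strand: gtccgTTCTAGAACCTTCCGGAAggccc
Hspa1a, chr17:34972248-34972265, minus strand: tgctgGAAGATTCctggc
Hspb1, chr5:135887797-135887814, plus strand: caagaGAAGTTTCcagat
Hspb1, chr5:135887817-135887834, plus strand: gggcaGAACCTTCctggc
Hspa5, chr2:34772020-34772048, plus strand: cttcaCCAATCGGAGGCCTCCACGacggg
Hsp90b1, chr10:86705633-86705661, minus strand: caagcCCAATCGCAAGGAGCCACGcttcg
Hsp90b1, chr10:86705528-86705556, minus strand, element on the opposite strand: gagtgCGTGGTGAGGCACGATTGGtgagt
Dnajc3, chr14:118937822-118937850, plus strand: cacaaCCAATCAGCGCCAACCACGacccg

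For 1 gene with each element the whole window before the start is printed, to show where the element lies. In Hspa1a, the heat-inducible Hsp70, the 2-unit match begins 104 bases before the start. In Dnajc3, an ER co-chaperone that also inhibits the kinase PERK, the ER stress element begins 105 bases before it. Neither window overlaps an annotated exon. A match is a run of letters and was not tested as a binding site.
Hspa1a, chr17:34972157-34972406, minus strand: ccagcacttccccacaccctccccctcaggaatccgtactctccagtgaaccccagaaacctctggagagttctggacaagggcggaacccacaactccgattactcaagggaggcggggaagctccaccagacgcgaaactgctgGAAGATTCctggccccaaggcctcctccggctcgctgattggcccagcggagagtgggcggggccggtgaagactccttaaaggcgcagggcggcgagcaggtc
Dnajc3, chr14:118937682-118937931, plus strand: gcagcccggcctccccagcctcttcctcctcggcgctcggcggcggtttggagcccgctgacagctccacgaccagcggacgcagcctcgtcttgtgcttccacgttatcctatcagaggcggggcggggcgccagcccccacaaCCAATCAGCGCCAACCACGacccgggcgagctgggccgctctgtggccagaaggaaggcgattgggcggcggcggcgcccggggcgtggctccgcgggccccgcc

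The libraries held 15329181 to 28998964 counts, so the limit that a count of 0 allows (3 counts) was 0.111 to 0.176 CPM, the read count scaled to library depth. The row hGSTA4, read from its name as the vector's transgene, had 45 to 5239 counts in the AAV-GSTA4 libraries and 1 to 3 in the AAV-GFP libraries. The row d2EGFP ranged from 99 to 3970 in AAV-GFP and from 7 to 163 in AAV-GSTA4, and there AAV-GFP replicate 1, with 99 counts, lay below AAV-GSTA4 replicate 1. All 20 RPE markers listed were above 3 counts in every library. They took 3.45% to 7.5% of counts in AAV-GFP and 5.98% to 10.2% in AAV-GSTA4. At an unadjusted p under 0.05, 6 of the 20 were higher, against 5.27% of all genes tested, and 0 were lower. Shares of other cells differed as well. The rod photoreceptor share was 1.96%, 3.41% and 6.85% in AAV-GFP replicates 1 to 3 and 1.04% to 1.83% in AAV-GSTA4. At the same threshold, 19 of 23 rod genes were lower, against 6.63% of all genes tested. The rod score used in some fits below is the mean log2 CPM of the rod genes. Because the rod share did not overlap between the groups, those fits cannot fully separate rod RNA from the vector. Lens genes took 0.427% to 1.44% in AAV-GFP and 0.418% to 11.7% in AAV-GSTA4, with the peak in AAV-GSTA4 replicate 2. AAV-GFP replicate 3 stood apart from the rest, with a mean correlation of 0.838 to the other libraries against 0.910 to 0.926. In bulk RNA, fewer cells of a type and less RNA per cell cannot be told apart, and the part of rod and lens RNA in the values below was not tested beyond the fits named.

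Levels within the set spanned a wide range, with the constitutive cytosolic Hsp70 first and the heat-inducible Hsp70 genes at ranks 52 and 58 of 73. Levels between genes are compared as mean CPM per kilobase of coding sequence over the 7 libraries, available for 73 of the 74. Hspa8, the constitutive cytosolic Hsp70 (Hsc70), was highest of the set at 1147 CPM per kilobase. The J protein Dnaja1, a cytosolic partner of Hsp70, followed at 428, the stress-responsive cytosolic Hsp90 gene Hsp90aa1 at 388, the ER Hsp70 gene Hspa5 (BiP) at 332 and the J protein Dnajc5, a chaperone of secretory vesicles, at 268. The heat-inducible Hsp70 genes stood far below, Hspa1b at 7.83 and Hspa1a at 4.04, ranks 52 and 58. Per kilobase of the whole transcript, Hspa8 stayed first at 929, while Dnaja1 took rank 8 and Dnajc5 rank 27. All rows together took 0.831% ± 0.0375 of unscaled counts in AAV-GFP (SD, n = 3) and 0.828% ± 0.0693 in AAV-GSTA4 (SD, n = 4), while their summed TMM-scaled level was 7517 ± 1505 CPM and 9043 ± 964 CPM, so which group is higher depends on the scaling.

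**Figure D1:**
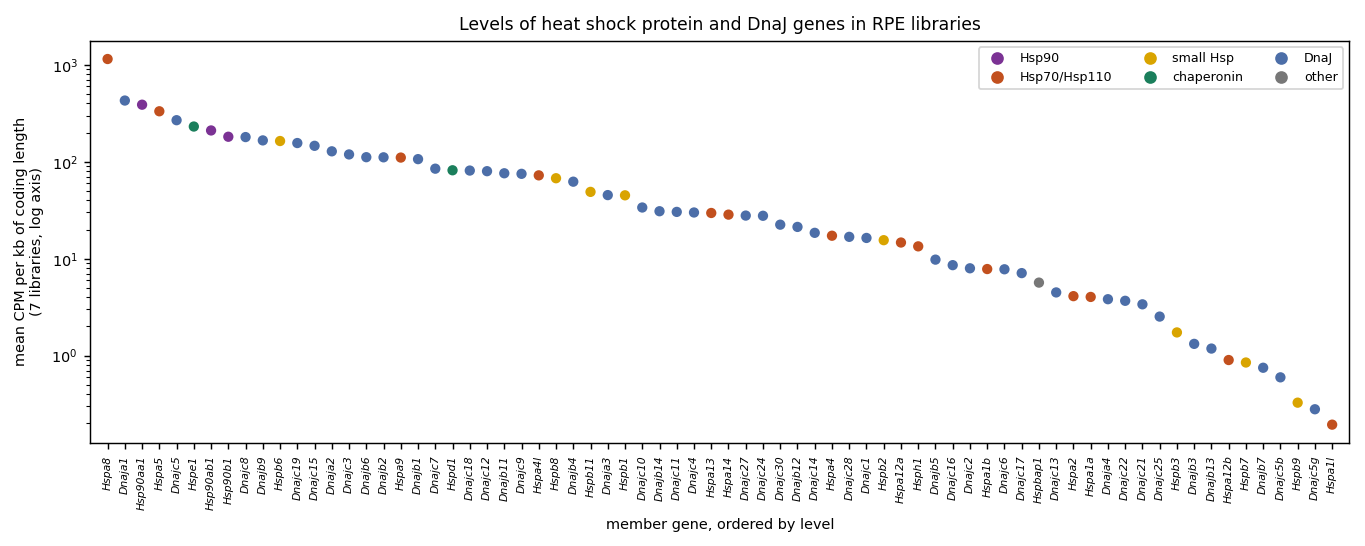
Mean CPM per kilobase of coding sequence (log axis) of each heat shock protein and DnaJ gene with a coding length, over all 7 libraries, ordered by level and coloured by family. Hspa8 leads at 1147, and the heat-inducible Hspa1a stands at rank 58 with 4.04. The levels of Hspa1a and Hspa1b depend on how reads that fit both were counted, which is not given.

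No gene of the set passed the test between the vectors: of the 69 that passed the filter on low counts, 0 reached an adjusted p of 0.05 by edgeR (quasi-likelihood, Benjamini-Hochberg over all genes), and 0 by DESeq2, which gave no adjusted p for Hspa12b and called 1.1% of all genes. At an unadjusted p under 0.05, DESeq2 put 2 members higher, against 6.63% of all genes, and 3 lower, against 7.76% of all genes. The edgeR test called 0.0% of the 15075 genes tested, so the members are read at an unadjusted p under 0.05. At that level 1 of 69 was higher in AAV-GSTA4 (1.45%), against 5.27% of all genes tested, and 3 were lower (4.35%), against 6.63% of all genes. Both shares lie below those of the table as a whole. The smallest adjusted p in the set was 0.373. The fitted log2 fold change, AAV-GSTA4 over AAV-GFP, was above 0 for 35 of 69 (50.7%, against 44.6% of all genes), and its median was 0.03, against -0.07 over all genes.

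The intervals say how large a change these libraries could have missed. The 95% interval of the log2 fold change lay within 1 of 0 for 35 of the 69 genes (50.7%), against 33.9% of all genes tested. For the remaining genes of the set a doubling or its reverse lay inside the interval. A log2 fold change beyond 1 was fitted for 7 genes (10.1%), against 14.5% of all genes: Hspb1, Hspbap1, Hspb2 and Dnajb7 above 1, and Hspa12a, Hspa12b and Dnaja4 below -1. Of these, Dnajb7 lies outside the naming rule and was picked after its values were seen; it had a mean of 0.387 CPM in AAV-GFP and 0.940 in AAV-GSTA4.

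**Figure D2:**
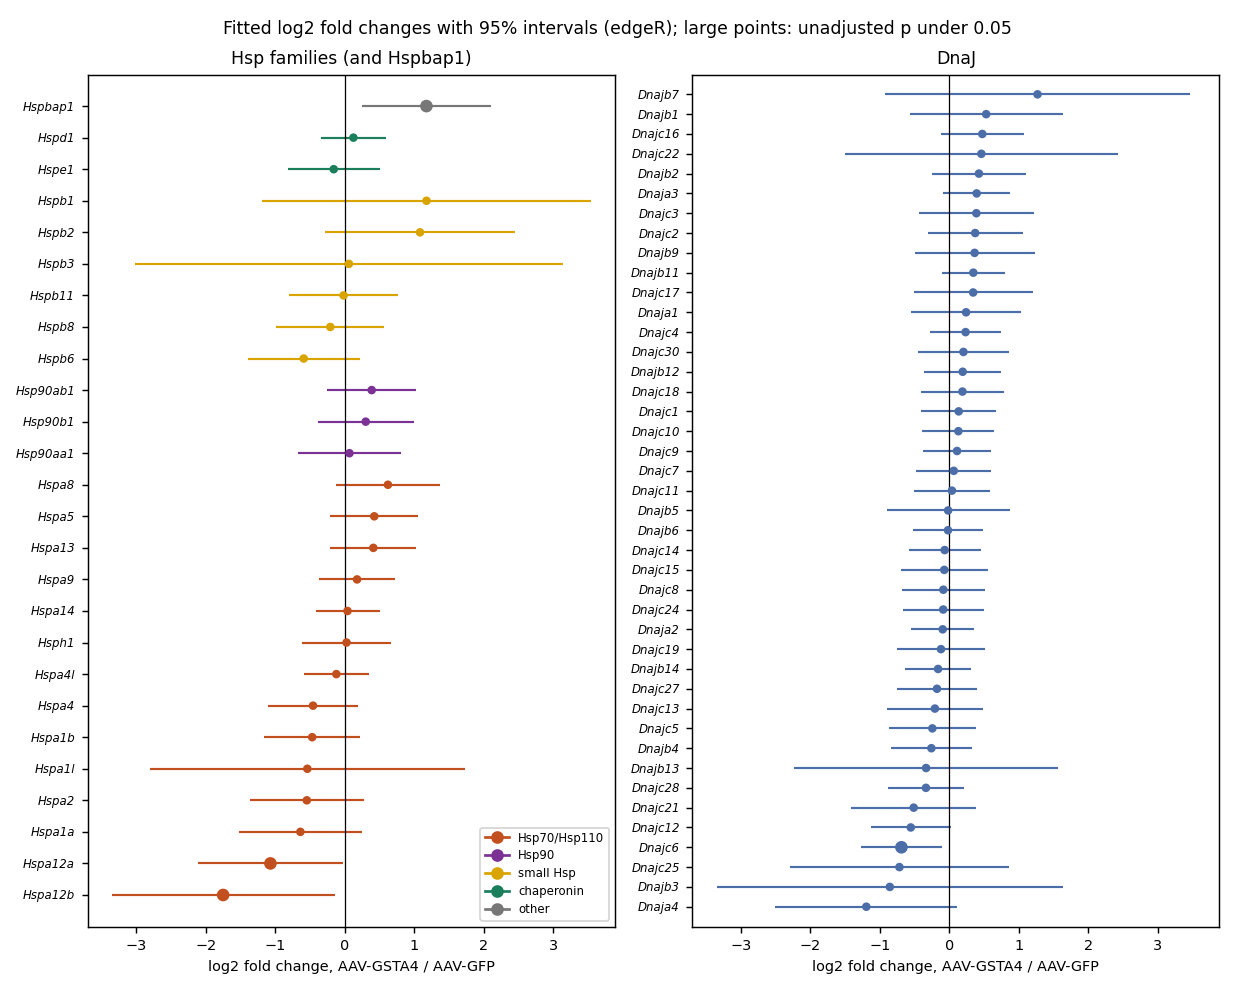
Fitted log2 fold change, AAV-GSTA4 over AAV-GFP, of the 68 tested genes with a coding length, with 95% intervals from edgeR, Hsp families and Hspbap1 on the left and DnaJ genes on the right, coloured by family. Large points mark the 4 genes with an unadjusted p under 0.05, and 35 of the 68 estimates lie above 0.

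Hspa8, the most abundant RNA of the symbol set, had 2059.7, 1871 and 1167 CPM in AAV-GFP replicates 1 to 3 and 2009, 3487, 2334 and 2638 CPM in AAV-GSTA4 replicates 1 to 4. Of the AAV-GSTA4 libraries, 3 lay above every AAV-GFP library, and AAV-GSTA4 replicate 1 lay below AAV-GFP replicate 1, so the groups overlap. The means were 1699 ± 471 CPM (SD, n = 3) and 2617 ± 634 CPM (SD, n = 4). The log2 fold change was 0.62 (SE 0.33, 95% interval -0.12 to 1.37, edgeR adjusted p = 0.478), which did not pass. Without AAV-GFP replicate 3 and AAV-GSTA4 replicate 2, the lowest and the highest library for this gene, it was 0.25. That fit was chosen after seeing the data, and leaving out these libraries must lower the estimate, so it is no check of the difference. DESeq2 on all 7 libraries gave 0.64 for Hspa8 (unadjusted p = 0.0332, DESeq2 adjusted p = 0.262). With Hspa8 left out, the other members took 0.645% ± 0.0208 of unscaled counts in AAV-GFP (SD, n = 3) and 0.588% ± 0.0186 in AAV-GSTA4 (SD, n = 4). On the TMM scale their sum lay the other way, at 5818 ± 1039.6 CPM and 6426 ± 469.8 CPM.

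The heat-inducible cytosolic Hsp70 genes had estimates below 0 in the fit reported. Hspa1a had 5.27, 11.01 and 13.0 CPM in AAV-GFP and 7.47, 5.23, 7.58 and 4.80 CPM in AAV-GSTA4, a log2 fold change of -0.64 (SE 0.39, edgeR adjusted p = 0.532). Its near-copy Hspa1b had 17.1, 17.3 and 19.4 CPM in AAV-GFP and 14.4, 18.5, 9.34 and 9.52 CPM in AAV-GSTA4, a log2 fold change of -0.47 (SE 0.31, edgeR adjusted p = 0.556). For both genes the groups overlap, and neither passed. Hspa1a was at -0.93 without AAV-GFP replicate 1 (unadjusted p = 0.0349) and at 0.33 with a rod score in the model. The coding sequences of Hspa1a and Hspa1b are identical at 1918 of 1926 aligned bases (99.6%) and their promoter windows at 247 of 250. Whether reads that fit both were dropped or split between them depends on a multi-mapping rule not given in the sources used here. Hspa1a against Hspa8 shares 74.5% of aligned coding bases.

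Immediate early genes, which also respond to tissue handling, took 0.0164% to 0.0347% of counts in AAV-GFP and 0.00508% to 0.0219% in AAV-GSTA4, with the highest share in AAV-GFP replicate 3, where Hspa1a and Hspa1b were also highest. Their part in these values was not tested. The remaining family members named by role were Hspa2, an Hsp70 best known from the testis, and Hspa4, an Hsp110-type exchange factor. Hspa2 had 7.13, 9.38 and 12.1 CPM in AAV-GFP and 5.53, 9.501, 4.64 and 6.42 CPM in AAV-GSTA4. Hspa4 had 42.3, 54.4 and 58.1 CPM in AAV-GFP and 45.1, 49.6, 22.4 and 33.4 CPM in AAV-GSTA4. Both were lower in the mean, with overlapping groups and edgeR adjusted p of 0.563 and 0.537. The Hsp110 gene Hsph1, also an exchange factor for Hsp70 and heat-inducible, had 44.4, 36.4 and 21.7 CPM in AAV-GFP and 35.6, 45.0, 27.7 and 30.9 CPM in AAV-GSTA4, with a log2 fold change of 0.03 (SE 0.29).

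The 2 divergent Hsp70 genes Hspa12a and Hspa12b were the lowest of the family by log2 fold change. Hspa12b, described in endothelial cells, had 1.58, 1.43 and 6.29 CPM in AAV-GFP and 1.16, 0.576, 0.940 and 0.996 CPM in AAV-GSTA4, so every AAV-GSTA4 library lay below every AAV-GFP library. Its log2 fold change was -1.75 (SE 0.72, 95% interval -3.35 to -0.15, unadjusted p = 0.0356, edgeR adjusted p = 0.393). Hspa12a had 41.4, 22.4 and 63.5 CPM in AAV-GFP and 39.4, 13.7, 14.9 and 13.0 CPM in AAV-GSTA4. AAV-GSTA4 replicate 1 lay within the AAV-GFP range and the other 3 below it. Hspa12a had a log2 fold change of -1.07 (SE 0.47, unadjusted p = 0.0463, edgeR adjusted p = 0.411).

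Both genes were highest in AAV-GFP replicate 3, the library with the largest rod share. Endothelial markers took 0.0241% of counts there and 0.00373% to 0.00573% in the other 6 libraries, and inner retina markers took 0.327% there against 0.0544% to 0.181%. The part of endothelial or inner retina RNA in the values of Hspa12a and Hspa12b was not tested. Without AAV-GFP replicate 3 the log2 fold change was -0.71 for Hspa12b and -0.65 for Hspa12a, with unadjusted p of 0.334 and 0.226. With a rod score in the model, Hspa12b was at -0.45 and Hspa12a at -0.43. Each gene also lost the unadjusted call without AAV-GSTA4 replicate 2, 3 or 4, and Hspa12a without AAV-GFP replicate 1 too. With a replicate block by title or library number, the unadjusted edgeR p was 0.0612 and 0.0835 for Hspa12a and 0.168 and 0.224 for Hspa12b. Hspa12b was also not called by limma-voom with quality weights (-0.75, unadjusted p = 0.185) or by edgeR with a Y-linked term (unadjusted p = 0.0826).

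The Hsp70 and Hsp110 family as a whole had 14 genes tested, of which 0 were higher and 2 lower at an unadjusted p under 0.05. Of all genes tested, 5.27% were higher and 6.63% lower at that level. Estimates lay above 0 for 6 and below 0 for 8, with a median log2 fold change of -0.29. That median was -0.02 without AAV-GSTA4 replicate 4, -0.13 without replicate 3 and -0.18 without replicate 2. The mitochondrial Hsp70 gene Hspa9 (mortalin) had 215, 248 and 165 CPM in AAV-GFP and 182, 268, 239 and 258 CPM in AAV-GSTA4, a log2 fold change of 0.18 (SE 0.24).

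The 3 Hsp90 genes each had an estimate above 0, and none passed. Hsp90aa1 had 1051, 907 and 529.8 CPM in AAV-GFP and 781, 648, 1219 and 831 CPM in AAV-GSTA4, a log2 fold change of 0.07 (SE 0.33). The constitutive cytosolic form Hsp90ab1 had 373, 419 and 372 CPM in AAV-GFP and 485, 744, 411 and 393 CPM in AAV-GSTA4, a log2 fold change of 0.39 (SE 0.28). The ER form Hsp90b1 (GRP94) had 509, 405 and 239.7 CPM in AAV-GFP and 355, 534, 543 and 465 CPM in AAV-GSTA4, a log2 fold change of 0.30 (SE 0.31). In each gene the groups overlap, with edgeR adjusted p of 0.954, 0.600 and 0.718. These signs rest partly on AAV-GFP replicate 3, without which the median of the 3 passed from 0.30 to 0.06 and Hsp90aa1 was at -0.17. With a rod score in the model 2 of the 3 lay below 0, with a median of -0.19.

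Hspb1 (HSP25), the best known of the small heat shock proteins, differed widely between libraries. It had 10.3, 23.9 and 14.9 CPM in AAV-GFP and 13.4, 125, 3.53 and 6.97 CPM in AAV-GSTA4, a span of 35.4-fold. The library at 125 CPM was AAV-GSTA4 replicate 2, and AAV-GSTA4 replicates 3 and 4 were below every AAV-GFP library. The log2 fold change was 1.18 with an SE of 1.06, and without that library it was -1.03. That library also held the highest level of the lens alpha crystallin Cryaa, 24540.3 CPM against 1200.2 to 8978 in the others, and of Cryab, 5633 CPM against 505 to 2618. Hspb1 itself is expressed in lens as well, and the part of lens RNA in its level was not tested.

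Hspb2, a muscle small heat shock protein that lies head to head with Cryab, had 5.55, 8.69 and 1.25 CPM in AAV-GFP and 8.74, 18.9, 7.88 and 8.41 CPM in AAV-GSTA4. It too was highest in AAV-GSTA4 replicate 2 and had overlapping groups, with a log2 fold change of 1.08 (SE 0.61, edgeR adjusted p = 0.498), and 1.69 without AAV-GFP replicate 2 (unadjusted p = 0.0376). Hspb6 (HSP20) had 60.8, 76.8 and 158 CPM in AAV-GFP and 93.0, 53.8, 68.1 and 46.7 CPM in AAV-GSTA4, a log2 fold change of -0.59 (SE 0.36). Its AAV-GFP replicate 3 value stood highest of all 7, and without that library the log2 fold change was -0.07, whereas without AAV-GFP replicate 1 it was -0.83 (unadjusted p = 0.0468). Hspb8 (HSP22), the partner of Bag3 in selective autophagy, averaged 43.1 ± 19.8 CPM (SD, n = 3) and 37.3 ± 8.16 CPM (SD, n = 4). The fitted log2 fold change of Hspb8 was -0.21, but -0.54 without AAV-GFP replicate 3 (unadjusted p = 0.0366), 0.0055 without AAV-GFP replicate 1, and -1.06 with a rod score in the model (unadjusted p = 0.0134). The 8 small heat shock protein genes were listed by symbol alone, and they include Hspb11, with a log2 fold change of -0.02. Of the 8, 6 were tested, 3 with estimates above 0 and 3 below, and without AAV-GSTA4 replicate 2 this was 1 and 5. Hspb7 and Hspb9 did not pass the filter, with 0 to 23 and 0 to 20 counts per library.

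**Figure D3:**
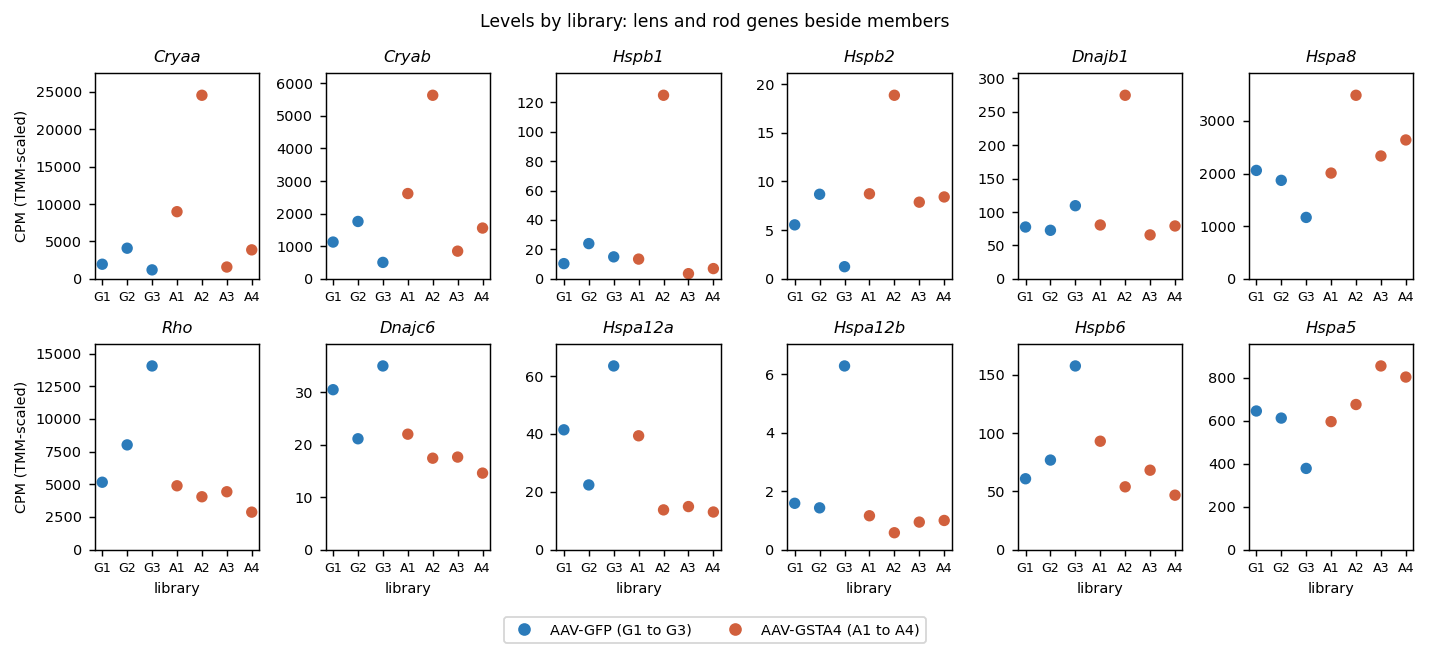
CPM of lens and rod genes and of selected chaperone genes in each library (G1 to G3 are AAV-GFP replicates 1 to 3, A1 to A4 are AAV-GSTA4 replicates 1 to 4), each panel with its own axis from 0. Hspb1 peaks at 125 CPM in the same AAV-GSTA4 replicate 2 in which Cryaa peaks at 24540.3 CPM.

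Hspbap1, the HSPB1-binding protein, was the single gene of the set higher in AAV-GSTA4 at an unadjusted p under 0.05. It had 3.22, 3.67 and 7.44 CPM in AAV-GFP and 12.0, 14.2, 7.82 and 9.22 CPM in AAV-GSTA4. The groups do not overlap, although AAV-GFP replicate 3 and AAV-GSTA4 replicate 3 lie close. The means were 4.78 ± 2.32 CPM (SD, n = 3) and 10.8 ± 2.83 CPM (SD, n = 4), and the log2 fold change was 1.18 (SE 0.41, 95% interval 0.25 to 2.10, unadjusted p = 0.0178, edgeR adjusted p = 0.373). An exact permutation test, two-sided, gave p = 0.0286, the smallest that 3 against 4 libraries allow. Groups without overlap, higher, occurred in 3 of the 69 genes (4.35%, against 6.44% of all genes), and lower in 1 (1.45%, against 5.61%). Without AAV-GFP replicate 1 the unadjusted p for Hspbap1 was 0.0614, and without AAV-GFP replicate 2 it was 0.0630. In edgeR it was 0.135 with library totals and 0.0613 with a replicate block by library number. Over the 18 alternatives, including that chosen after seeing the data, the log2 fold change of Hspbap1 ran from 0.80 to 1.90. The unadjusted p was under 0.05 in 14 of the 18, and the smallest adjusted p was 0.0732, by limma-voom with quality weights.

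The ER chaperones mostly had estimates above 0, and none passed. Of the 13 ER genes listed, 0 had an unadjusted p under 0.05, against 11.9% of all genes tested. Their estimates lay above 0 for 11 and below 0 for 2, with a median log2 fold change of 0.30. Hspa5, the main Hsp70 of the ER, had 645, 612 and 378 CPM in AAV-GFP and 595, 675, 855 and 803 CPM in AAV-GSTA4. AAV-GSTA4 replicate 1 lay below 2 of the 3 AAV-GFP libraries, so the groups overlap. Hspa5 had a log2 fold change of 0.43 (SE 0.28, 95% interval -0.21 to 1.06, edgeR adjusted p = 0.560).

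Of the other ER genes, those with the smallest p had estimates near that of Hspa5, and the rest lay lower, down to -0.72 for Dnajc25. Dnajb11 (ERdj3), a co-chaperone that binds unfolded clients, had 64.5, 77.3 and 70.4 CPM in AAV-GFP and 104, 74.6, 97.1 and 84.5 CPM in AAV-GSTA4, a log2 fold change of 0.35 (SE 0.20, edgeR adjusted p = 0.506). Hspa13 (STCH), a microsome-associated Hsp70, had 51.5, 31.4 and 22.8 CPM in AAV-GFP and 43.8, 50.6, 46.5 and 46.6 CPM in AAV-GSTA4, a log2 fold change of 0.41 (SE 0.28), and 0.79 without AAV-GFP replicate 1 (unadjusted p = 0.0107). Dnajc16 had 16.3, 13.98 and 18.5 CPM in AAV-GFP and 19.9, 18.6, 30.9 and 20.9 CPM in AAV-GSTA4, with every AAV-GSTA4 library above every AAV-GFP library by a narrow margin. Its log2 fold change was 0.47 (SE 0.26, edgeR adjusted p = 0.495). Dnajc3 averaged 153 ± 78.9 CPM (SD, n = 3) and 200.3 ± 34.3 CPM (SD, n = 4), and Dnajb9 (ERdj4) 95.04 ± 51.1 CPM and 122 ± 29.1 CPM.

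For 6 of the 13 ER genes AAV-GFP replicate 3 was the lowest library, as for 29 of all 69 tested members (42.0%), against 29.4% of all genes tested. The summed ER level was 1895, 1631 and 1108 CPM in AAV-GFP replicates 1 to 3 and 1654, 1942, 2175 and 2041 CPM in AAV-GSTA4 replicates 1 to 4, with replicate 3 of AAV-GFP the lowest of all 7. RPE markers were also lowest in that library, at 3.45% of counts against 5.98% to 10.2% in the other 6. The median of the list was 0.19 without AAV-GFP replicate 3 and 0.15 with AAV-GSTA4 replicate 2 left out as well. With a rod score in the model it was 0.02, with 7 genes above 0 and 6 below, against 0.01 over all genes. With library totals it was 0.04, but there the median of all genes moved to -0.37, and the list stood 0.41 above it, against 0.37 in the fit reported. The 3 genes with an ER stress element had log2 fold changes of 0.43 (Hspa5), 0.30 (Hsp90b1) and 0.39 (Dnajc3), and with the rod score Hsp90b1 was at -0.19 and Dnajc3 at -0.40.

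**Figure D4:**
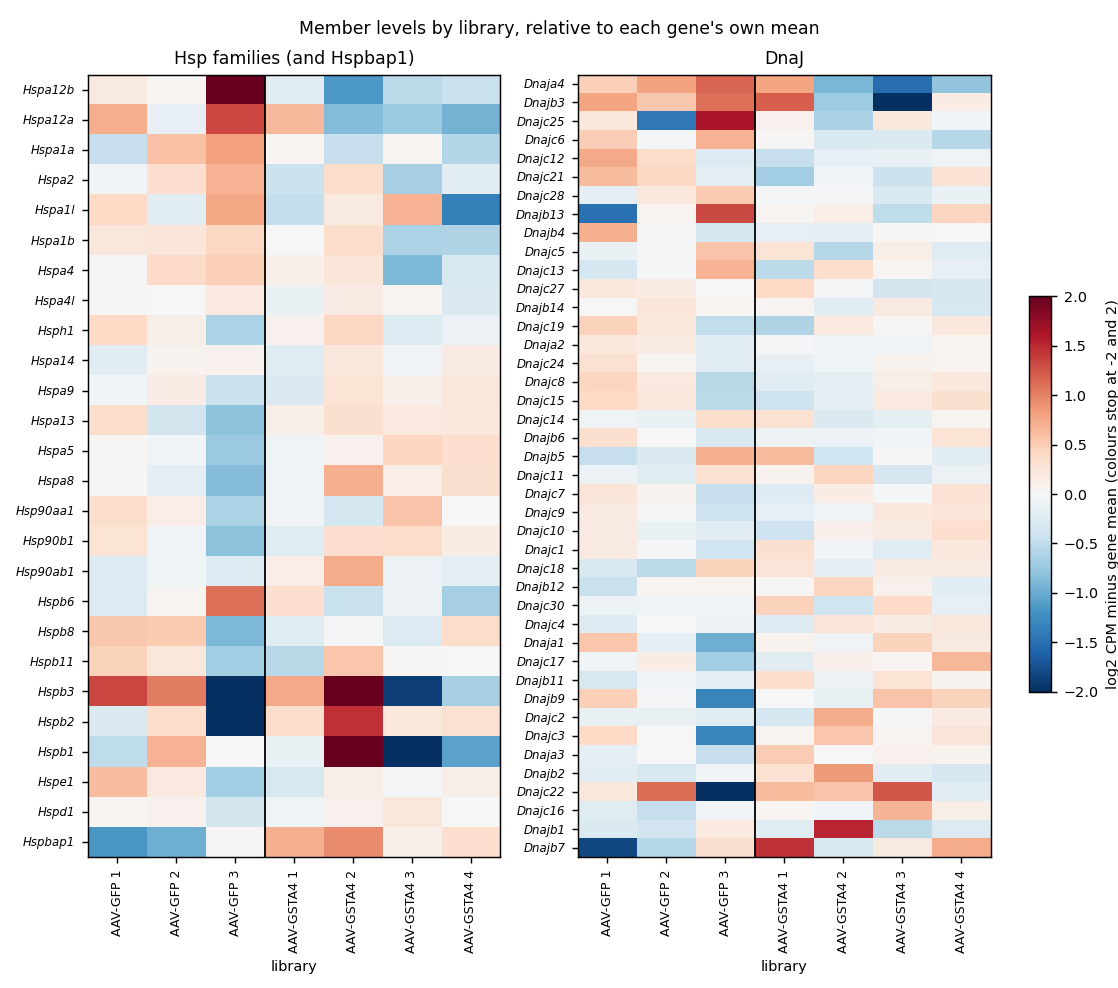
Log2 CPM of each of the 68 tested genes with a coding length in each library minus the mean of that gene over the 7 libraries, with colours stopping at -2 and 2 and a line between AAV-GFP (left) and AAV-GSTA4 (right). AAV-GFP replicate 3 is the lowest library for 29 of all 69 tested genes and the highest for 19, and AAV-GSTA4 replicate 2 is the highest for 17.

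The cytosolic heat-inducible genes were split. Of 14 listed, 0 had an unadjusted p under 0.05, against 11.9% of all genes tested. Their estimates lay above 0 for 8 and below 0 for 6, with a median log2 fold change of 0.05. Single libraries turned this balance: without AAV-GFP replicate 3 it was 4 above and 10 below (median -0.11), without AAV-GSTA4 replicate 2 it was 5 and 9 (-0.19), and without AAV-GFP replicate 1 it was 11 and 3 (0.23). Dnajb1 (Hsp40), the J protein most strongly induced by heat, had 77.6, 72.7 and 109 CPM in AAV-GFP and 80.6, 275, 65.8 and 79.1 CPM in AAV-GSTA4. Apart from the peak of 275 in AAV-GSTA4 replicate 2, its AAV-GSTA4 values lay within or below the AAV-GFP range, and without that library the log2 fold change passed from 0.53 to -0.19. Dnaja1 averaged 462 ± 234 CPM (SD, n = 3) and 546 ± 86.1 CPM (SD, n = 4). The 14 tested genes with a 2-unit heat shock element in the window had a median log2 fold change of -0.09, and the 41 tested genes without it had -0.07. Hspa8, Hsp90aa1 and Hsp90ab1 had no window and are in neither count. Dnajb1 and Hspb8, both listed as heat-inducible, had windows without a match. The medians therefore do not compare heat-inducible genes with the rest.

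The mitochondrial folding genes Hspd1 and Hspe1 lay close to 0. Hspd1 (HSP60), the barrel of the mitochondrial chaperonin, averaged 133 ± 21.8 CPM (SD, n = 3) and 146 ± 13.4 CPM (SD, n = 4), with log2 fold change 0.13 (SE 0.21, 95% interval -0.34 to 0.59). Its lid Hspe1 (HSP10) averaged 75.1 ± 31.6 CPM and 67.3 ± 9.02 CPM, a log2 fold change of -0.16 (SE 0.30). The heat shock element printed above stands in the Hspe1 window and in that of the inner Hspd1 start. Dnaja3 (TID1), the J protein of mitochondrial Hsp70, had 55.9, 63.7 and 46.4 CPM in AAV-GFP and 91.0, 64.0, 68.2 and 67.6 CPM in AAV-GSTA4. Every AAV-GSTA4 library lay above every AAV-GFP library, the closest pair being 63.7 and 64.0 CPM. Dnaja3 had a log2 fold change of 0.39 (SE 0.22, edgeR adjusted p = 0.488). Of 10 mitochondrial genes listed, 6 estimates lay above 0 and 4 below, with a median of 0.08.

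The DnaJ genes were evenly split. Of 45, 42 were tested, with 21 estimates above 0, 21 below and a median log2 fold change of 0.01. At an unadjusted p under 0.05, 0 were higher and 1 lower, against 5.27% and 6.63% of all genes tested. Class A had a median of 0.07 over 4 genes, class B 0.09 over 12 and class C -0.01 over 26. The gene called lower was Dnajc6 (auxilin), which recruits Hsc70 to strip clathrin coats from vesicles and is best known from neurons. It had 30.5, 21.1 and 35.01 CPM in AAV-GFP and 21.998, 17.4, 17.6 and 14.6 CPM in AAV-GSTA4, where AAV-GSTA4 replicate 1 lay above AAV-GFP replicate 2. The log2 fold change was -0.69 (SE 0.26, 95% interval -1.27 to -0.11, unadjusted p = 0.0242, edgeR adjusted p = 0.375).

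Dnajc6 lost its unadjusted call without AAV-GFP replicate 1 or 3 or AAV-GSTA4 replicate 2, 3 or 4, with unadjusted p of 0.0516 to 0.0793. With a replicate block by title or library number, its unadjusted edgeR p was 0.134 and 0.0943. With a rod score in the model its log2 fold change was -0.45 (unadjusted p = 0.223), and rod and inner retina markers were both highest in AAV-GFP replicate 3, where Dnajc6 was highest. Dnajc5 (cysteine string protein), the other synaptic J protein with an abundant RNA, averaged 175 ± 49.1 CPM (SD, n = 3) and 148 ± 36.7 CPM (SD, n = 4), with log2 fold change -0.24 (SE 0.28). Of the 5 J proteins of synapse and clathrin coat, Dnajc5b and Dnajc5g did not pass the filter, and the 3 tested had estimates below 0. Without AAV-GFP replicate 3, where 4 were tested, 3 lay above 0 and 1 below (median 0.08), and with the rod score 2 lay above and 1 below.

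Dnajc12, a co-chaperone of the aromatic amino acid hydroxylases, had 77.0, 59.3 and 38.0 CPM in AAV-GFP and 33.0, 40.9, 41.3 and 42.9 CPM in AAV-GSTA4. AAV-GFP replicate 3 lay within the AAV-GSTA4 range and the other 2 AAV-GFP libraries above it. The log2 fold change was -0.55 (SE 0.26, unadjusted p = 0.0564, edgeR adjusted p = 0.432), and without AAV-GFP replicate 3 it was -0.78 (unadjusted p = 0.00287). Dnaja4, a cytosolic class A J protein, had 5.22, 6.53 and 8.40 CPM in AAV-GFP and 6.47, 1.92, 1.23 and 2.10 CPM in AAV-GSTA4. Here AAV-GSTA4 replicate 1 lay within the AAV-GFP range and the other 3 below it, and without it the log2 fold change moved from -1.19 to -1.91 (unadjusted p = 0.00320). Dnajb8 was at 0 counts in every library.

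The wider chaperone network, 69 genes outside the symbol pattern, was listed for comparison. Of its 65 tested genes, 0 had an adjusted p under 0.05, 7 were higher and 0 lower at an unadjusted p under 0.05, against the 5.27% and 6.63% of all genes, and 48 estimates lay above 0. The 7 were Sil1, the exchange factor of Hspa5, with a mean of 51.9 ± 10.6 CPM in AAV-GFP (SD, n = 3) and 93.8 ± 20.04 CPM in AAV-GSTA4 (SD, n = 4); the Hsp90-bound phosphatase Ppp5c, with 81.3 ± 18.3 and 137 ± 23.1 CPM; the Hsp90 co-chaperone relative Cdc37l1; the lens heat shock factor Hsf4; the ER disulfide isomerase Pdia4, with 135 ± 51.6 and 238 ± 49.3 CPM; the mitochondrial disaggregase Clpb; and Cryaa. Their edgeR adjusted p ran from 0.363 to 0.411. Sil1 and Pdia4 stand beside Hspa5 in the ER, where the log2 fold changes were 0.85 (SE 0.24) for Sil1 and 0.82 (SE 0.32) for Pdia4. Both were named for their small p, from a list of 17 mitochondrial and ER chaperones. Of that list 14 estimates lay above 0 and 3 below, down to -0.81, with a median of 0.22.

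Hsf1, the factor that drives the heat shock response, had 18.6, 27.6 and 55.5 CPM in AAV-GFP and 43.4, 29.2, 34.1 and 34.98 CPM in AAV-GSTA4, a log2 fold change of 0.06 (SE 0.35, edgeR adjusted p = 0.962). Its 4 AAV-GSTA4 values lay inside the range of the 3 AAV-GFP values. Hsf4 averaged 2.37 ± 0.376 CPM (SD, n = 3) and 5.73 ± 2.69 CPM (SD, n = 4) and, with Cryaa, was highest in AAV-GSTA4 replicate 2, the library with the most lens RNA, at 9.55 CPM.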

How the data were processed

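The authors deposited raw read counts per gene symbol for the 7 libraries. Per the labels' protocols, polyadenylated RNA was copied into full-length cDNA with a low-input kit and fragmented with a transposase; no molecular identifiers are mentioned, so limits on counts cover counting error only. The submitters' processing notes name STAR 2.7.1a and featureCounts 1.6.2 and list both GRCm38/mm10 and GRCh38/hg38 without a role. Which annotation, strand option and multi-mapping rule were used is not given in the sources used here.

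Groups were compared in edgeR 4.0.16 under R 4.3.3 by its quasi-likelihood F-test, on all 7 libraries with the vector as the only factor, TMM scaling, the default filter on low counts, and Benjamini-Hochberg adjustment over all 15075 genes tested, at a threshold of 0.05. CPM values are TMM-scaled. Scripts were tested on simulated data. Genes were named by rule: the 8 smallest unadjusted p in each direction, genes fixed by role, the 5 highest levels per kilobase of coding sequence, and network genes with an unadjusted p under 0.05. The genes and lists were chosen with earlier results of these data known, so no list was tested. A single matching row is not reported here by name or value, though it stays in the counts. Exact permutation tests, two-sided, cover single named genes. Alternatives were median-of-ratios scaling, library totals, no filter, at least 10 counts in every library, DESeq2 1.42.0, limma-voom (limma 3.58.1) with quality weights, a rod score, a replicate block by title or library number, a Y-linked term, and each library left out. Every replicate pair differed by more than sampling noise. Promoter sequences are from RefSeq on GRCm38.p6, and no coordinates were taken from the count table.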

Additional observations from a re-analysis of the deposited data

Results flagged for a closer look

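Among the 4 AAV-GSTA4 libraries, a single library stood far from the other 3 for 4 of the 69 genes examined (5.80%), where chance alone gives about 5%. The measure is the gap between that library and its nearest neighbour as a share of the whole range of log2 CPM, set against Dixon's critical value at the 95% level. It was 0.882 for Hspb2 and 0.858 for Dnajb1, both high in AAV-GSTA4 replicate 2. It was 0.878 for Hspa12a, high in AAV-GSTA4 replicate 1, and 0.836 for Dnajb6, high in AAV-GSTA4 replicate 4.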

How the results depend on the processing

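No gene of the set had an adjusted p under 0.05 under any of the 18 alternatives. Shares in brackets are those of all genes called in the same fit and direction. The count of members higher at an unadjusted p under 0.05 was 1 of 69 in the fit reported. It was 0 with library totals (1.77%), 2 with DESeq2 (6.63%) and 3 with limma-voom (10.3%). With a library left out, where 68 to 71 members were tested, it was 1 to 2 (3.21% to 6.76%). The count lower, 3, was 8 with library totals (14.1%), 6 with limma-voom (11.5%) and 6 with the rod score (5.81%). With a library left out it was 0 to 4 (3.67% to 7.46%), and it was 0 without AAV-GSTA4 replicate 2, 3 or 4. The median log2 fold change, 0.03, was -0.28 with library totals, where that of all genes was -0.37, and -0.12 with the rod score; it ran from -0.017 to 0.17 with a library left out, the highest without AAV-GFP replicate 1. Leaving out AAV-GFP replicate 3 and AAV-GSTA4 replicate 2 together, an alternative chosen after seeing the data, gave 3 higher (8.8%) and 3 lower (6.42%), with a median of -0.026. The cause of these shifts was not tested.

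Equal replicate numbers did not pair the libraries: the correlations of deviations were -0.09, 3.3e-05 and 0.009 by title number, and -0.09, 0.01 and -0.13 by library number. With a replicate block by title number 2 genes were higher (1.94%) and 0 lower (3.69%), and by library number 0 (3.74%) and 0 (3.87%). With the Y-linked term 1 was higher (4.56%) and 3 lower (5.28%). In that edgeR fit Dnajc12 was called lower (unadjusted p = 0.0357) and Hspa12b was not (unadjusted p = 0.0826).

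Depth limits the genes near the floor: Dnajb8 and 4 others were not tested.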
